A study of Mus musculus with 2 samples.

Results

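Arg1, Arg2, Nos2, Odc1, Ass1, Slc7a2 and Sat1 are 7 genes of arginine and polyamine metabolism, and they are described here by cell class in the lung of 1 control mouse and 1 mouse with fibrosis. They were taken by symbol from the 27998 genes of the count matrices, and each symbol matched 1 gene. Both mice were male C57Bl/6J animals, 3 months old, and both were exposed through the trachea, under isoflurane, and harvested 14 days later. The treatment was 100 µg of TiO2 (titanium dioxide, a mineral particle) or of crocidolite asbestos (a fibre that scars the lung). The labels call 1 mouse control and the other fibrosis without saying which particle each received, so only the words control and fibrosis are used for the libraries. After perfusion, each lung was dissociated with dispase plus DNase I and its erythrocytes were lysed, and the cells were loaded without a labelled sort on the 10x Genomics platform with 3′ chemistry. Each group is 1 library of 1 mouse, so no difference between the libraries has a replicate check, and none was tested.

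Arginine enters cells through cationic amino acid transporters such as Slc7a2, and several enzymes compete for it. The arginases Arg1 (cytosolic) and Arg2 (mitochondrial) split it into urea and ornithine, whereas the inducible nitric oxide synthase Nos2 turns it into nitric oxide and citrulline. Ass1, argininosuccinate synthase, carries out the rate-limiting step by which citrulline is turned back into arginine. Ornithine can go on to proline, a building block of collagen, or, through the ornithine decarboxylase Odc1, to polyamines, which Sat1 acetylates for export or breakdown. In macrophages, Arg1 and Nos2 have long served as contrasting markers of activation by type 2 cytokines and by microbial or interferon signals.

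Arg1 (ENSMUSG00000019987) is on the minus strand at chr10:24915221-24927484 of GRCm38, and Arg2 (ENSMUSG00000021125) is on the plus strand at chr12:79130777-79156301. Slc7a2 (ENSMUSG00000031596) lies at chr8:40862396-40922308, Nos2 (ENSMUSG00000020826) at chr11:78920787-78960254 and Ass1 (ENSMUSG00000076441) at chr2:31470207-31520672, all on the plus strand. Odc1 (ENSMUSG00000011179) is on the plus strand at chr12:17544794-17551505, and Sat1 (ENSMUSG00000025283) on the minus strand at chrX:155213132-155216449. Positions are from GENCODE M21, and the values below are UMIs, that is, distinct RNA molecules counted over each whole gene. The 2 arginases have separate genes but act on the same substrate, and the counts keep them apart by sequence. Over the 969 coding bases of Arg1 and the 1062 of Arg2, aligned, 58.0% of bases were identical. The longest run shared by the transcripts is 12 bases, and it is shown in capitals with its neighbouring coding bases, 5′ to 3′, because it is the closest the 2 transcripts come to each other.
Arg1: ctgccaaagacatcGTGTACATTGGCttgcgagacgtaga
Arg2: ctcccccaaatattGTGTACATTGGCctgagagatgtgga
The run starts at coding base 523 of Arg1 and coding base 580 of Arg2. On the opposite strand, Arg2 overlaps Vti1b, a gene of vesicle traffic, and Slc7a2 overlaps a non-coding RNA, Gm26584. Whether counting used the strand is not given in the sources used here. Vti1b was at 45.6 CPM (UMIs of the gene for every 1000000 of the class) in control neutrophil-like cells and 92.2 in control alveolar macrophage-like cells, the reverse of the order of Arg2 below, and Gm26584 had 0 UMIs in control and 1 in fibrosis alveolar macrophage-like cells.

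The control library held 8280 cells with 36632591 UMIs (median 3783.5 per cell) and the fibrosis library 7173 cells with 38090308 UMIs (median 4292.0). After filters on mitochondrial share and doublet score, 7510 and 6559 cells were kept, and the libraries shared 89 barcodes. Cells were put in classes by the markers of each cell type, with none of the 7 genes among them, and a class is written as "like" its type. There were 13 classes with at least 50 cells in each library. The cells left without a class made up 3 sets: cells with markers of several lineages (243 in control, 236 in fibrosis), cells between related classes (136 and 209) and cells that passed no gate (430 and 618). Class sizes differed between the libraries: alveolar macrophage-like cells numbered 644 in control and 964 in fibrosis, neutrophil-like cells 676 and 82, and classical monocyte-like cells 1598 and 395. A level is given as CPM, the UMIs of a gene for every 1000000 UMIs of the class, with its exact Poisson 95% interval, and a ratio is fibrosis over control with its exact conditional interval. Intervals cover counting error only, since cells of 1 mouse are not replicates.

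Arg1 and Slc7a2 were higher in the fibrosis library in macrophage-like cells, Arg2 and Sat1 were at their highest in myeloid cells of other kinds, and Nos2 was near 0 in both libraries. A difference was called where the ratio was at least 2 in either direction and the gene had at least 20 UMIs over both libraries in the class. Of the 91 pairs of a gene and a class, 44 had that many UMIs. The fibrosis library was higher in 5 of these (Arg1 and Ass1 in alveolar macrophage-like cells, Arg1 and Slc7a2 in interstitial macrophage-like cells, Ass1 in B-like cells) and lower in 0. Over all genes, 4.8% of 94570 such pairs were higher and 3.24% lower. In alveolar macrophage-like cells alone, 2 of the 6 genes with enough UMIs were higher, against 4.34% of 10327 genes, and 0 were lower, against 1.98%. The median log2 ratio there was 0.55 for the 6 genes and −0.07 for all genes. In interstitial macrophage-like cells, 2 of 4 were higher against 6.03% of all genes (0 lower against 3.62%), and in B-like cells 1 of 3 was higher against 3.82% (0 lower against 2.96%). No member was called in the other 10 classes, where the all-gene shares set what a count of 0 is read against. Those shares were 6.40% higher and 2.60% lower in club-like cells, 3.86% and 2.83% in ciliated-like, 4.08% and 5.42% in endothelial-like, and 3.77% and 1.31% in AT2-like cells. They were 3.40% and 4.01% in nonclassical monocyte-like, 4.41% and 3.16% in classical monocyte-like, and 4.58% and 3.33% in type 1 dendritic-like cells. In lymphocytes they were 4.07% and 2.29% in T-like and 2.98% and 5.60% in NK-like cells, and in neutrophil-like cells 15.8% and 7.34%. With 1 to 6 members tested in each of these classes, a count of 0 was near what these shares give.

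**Figure D1:**
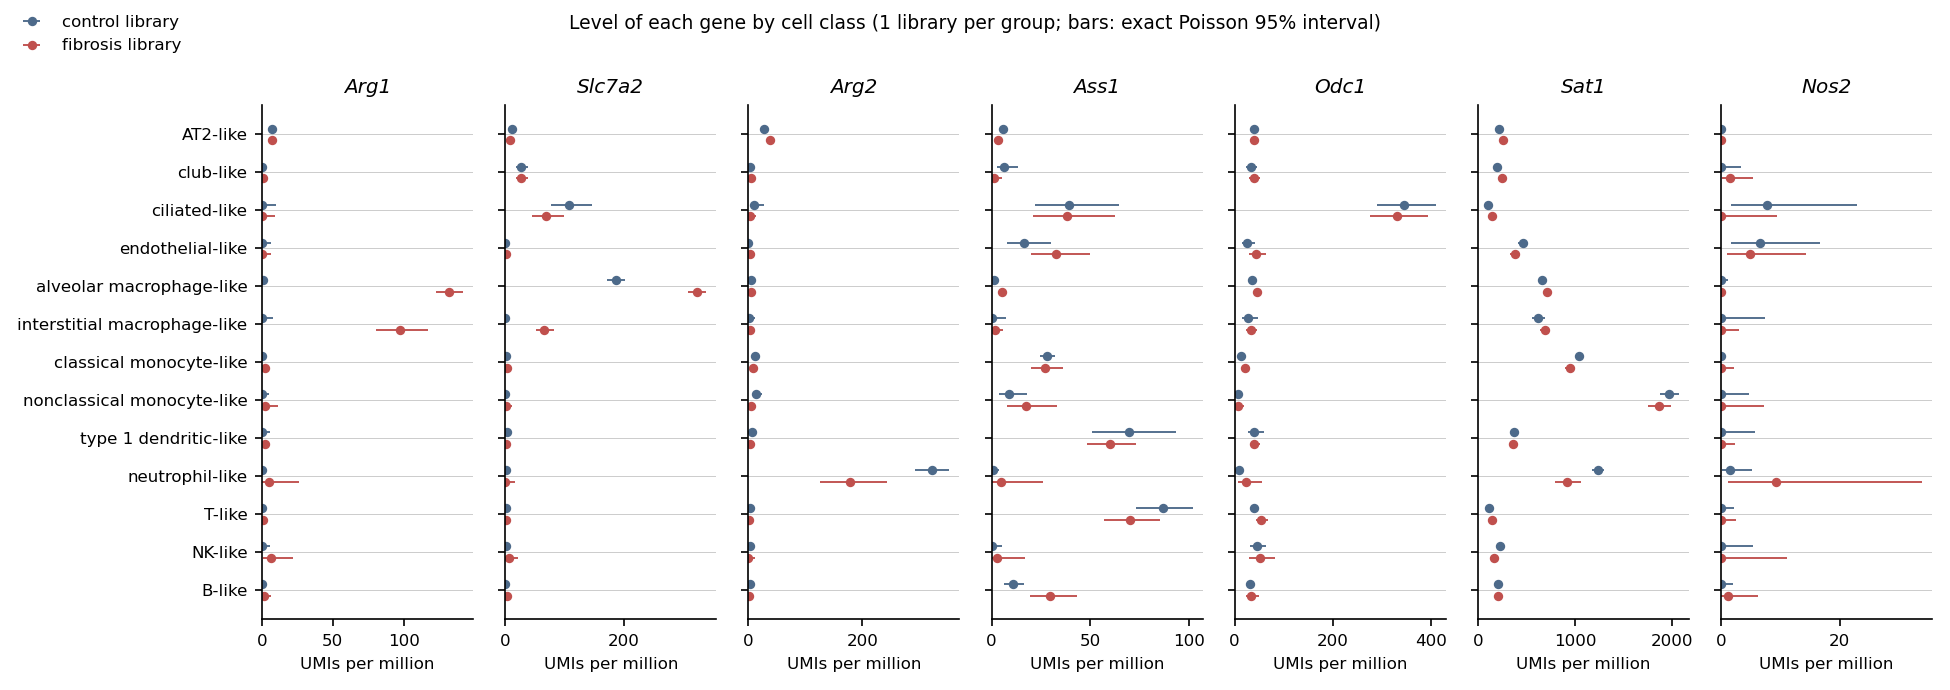
Level of each of the 7 genes in CPM (x axis, a separate scale for each gene) in the 13 cell classes (y axis), with 1 point per library (control and fibrosis) and bars for the exact Poisson 95% interval. Arg1 stands out in the fibrosis library in alveolar macrophage-like (132) and interstitial macrophage-like cells (97.5), whereas Odc1 and Sat1 sit close together in the 2 libraries in most classes.

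Slc7a2, the transporter, was mainly a gene of alveolar macrophage-like cells, which held 72.7% of its UMIs in control and 77.4% in fibrosis. Its level in these cells was 187 CPM in control (614 UMIs) and 324 CPM in fibrosis (1836 UMIs), a ratio of 1.73 (1.58–1.90). The difference was past counting error but under 2-fold. With every cell thinned to 1000 UMIs, 17.2% of control and 25.3% of fibrosis cells of this class had a Slc7a2 UMI. Unthinned, the shares were 56.5% and 72.5%, at median depths of 4915.0 and 5318.5 UMIs. B-like cells, which should lack the transporter, had it in 0 of 859 cells in control (median 1845.0 UMIs; exact Clopper-Pearson upper limit 0.429%) and in 0.893% in fibrosis (median 2503.5).

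Outside macrophages, Slc7a2 was next highest in ciliated-like cells, the airway cells that move mucus, at 107 CPM (77.0–146) in control and 68.7 CPM (45.2–99.9) in fibrosis. Club-like cells, the secretory cells of the airway, had 27.1 CPM in each library. In AT2-like cells, the alveolar cells that make surfactant, it was 11.1 CPM in control and 7.48 CPM in fibrosis, a ratio of 0.676 (0.480–0.955). Epithelial cells thus carried the transporter in both libraries, at levels well under those of alveolar macrophage-like cells. Interstitial macrophage-like cells, which live in the tissue rather than the airspace, had 0 UMIs in control and 79 UMIs (65.8 CPM) in fibrosis, at least 11-fold higher against a control floor of 3 UMIs. On the log2 scale this bound was 3.46, and it was 2.07 with cells of at most 5% mitochondrial UMIs.

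Arg1 was scarce in control lung, where most of its UMIs were in AT2-like cells, and was found mainly in macrophage-like cells of the fibrosis library. Kept control cells held 59 Arg1 UMIs in 50 cells, and kept fibrosis cells 1191 UMIs in 296 cells. AT2-like cells held 71.2% of the control UMIs, whereas alveolar macrophage-like cells held 63.0% of the fibrosis UMIs, interstitial macrophage-like cells 9.82% and AT2-like cells 5.88%. The class that held most of its UMIs thus differed between these 2 libraries. No control cell had more than 3 Arg1 UMIs, and in fibrosis 58 cells had at least 5 and the highest had 79. The 10 highest fibrosis cells held 28.3% of its UMIs.

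**Figure D2:**
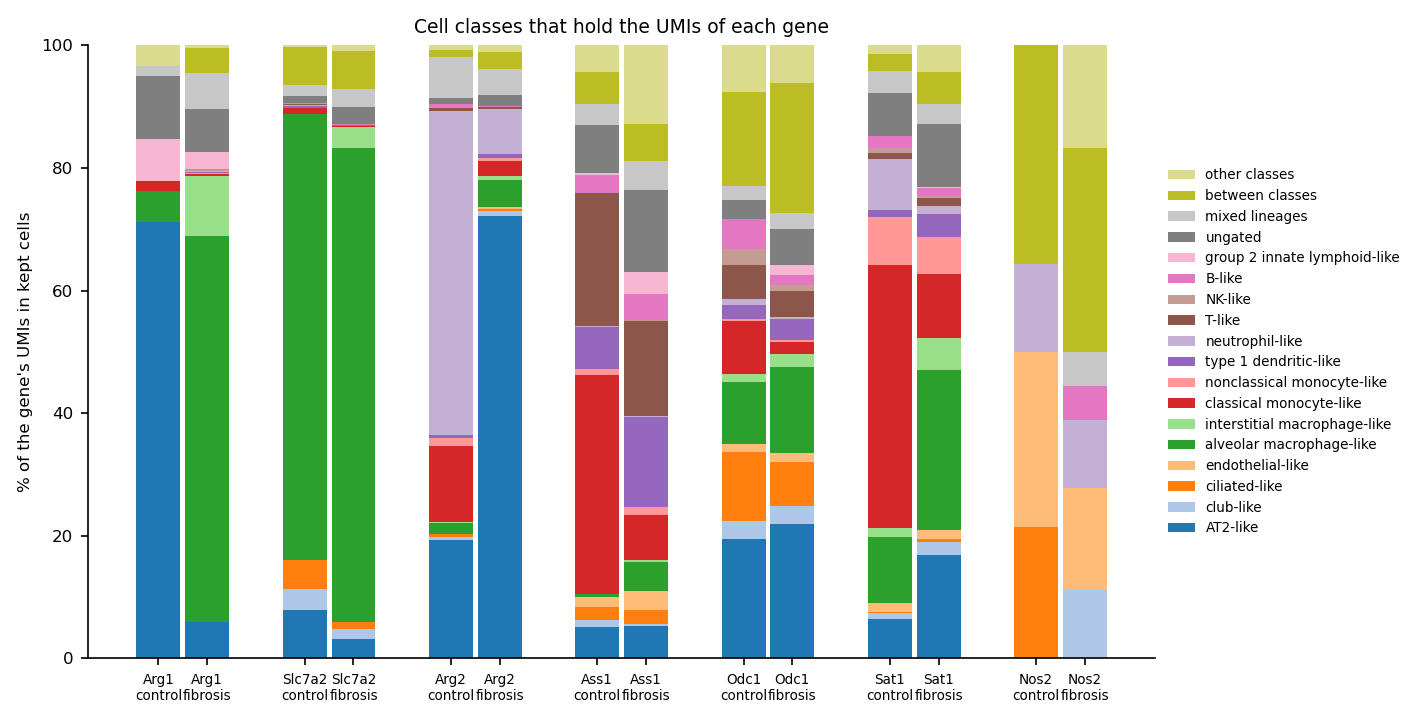
Share of each gene's UMIs (y axis, percent of UMIs in kept cells) held by each cell class or leftover set, with 1 stacked bar per gene and library. The largest share of Arg1 is in AT2-like cells in control (71.2%) and in alveolar macrophage-like cells in fibrosis (63.0%), that of Arg2 in neutrophil-like (52.8%) and in AT2-like cells (72.1%), and that of Slc7a2 in alveolar macrophage-like cells in both.

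In alveolar macrophage-like cells, Arg1 had 3 UMIs (0.913 CPM) in control and 750 UMIs (132 CPM) in fibrosis, a ratio of 145 (49.3–703). The class was spread over clusters differently in the 2 libraries. One led by Fabp1 and Gal was its largest in both, with 561 of 644 control cells but 461 of 964 fibrosis cells. Another, whose leading genes include Mmp12, held 47 control and 442 fibrosis cells. Over all its cells, the cluster led by Fabp1 had 0 Arg1 UMIs in control and 5 in fibrosis (2.10 CPM). The cluster with Mmp12 had 4 UMIs in 54 control cells (13.6 CPM) and 938 UMIs in 530 fibrosis cells (272 CPM). Of all alveolar macrophage-like cells, 0.466% had an Arg1 UMI in control and 12.3% in fibrosis. Thinned to 1000 UMIs, the shares were 0%, with an exact Clopper-Pearson upper limit of 0.571%, and 6.22%. In B-like cells, which should lack Arg1, the share was 0 of 859 in control and 0.298% (1 of 336) in fibrosis, at the median depths given above. Interstitial macrophage-like cells had 0 UMIs in control and 117 UMIs (97.5 CPM) in fibrosis, at least 16.3-fold higher. This bound, 4.03 on the log2 scale, was 2.94 when Leiden clusters, groups of cells with like expression, took the place of marker classes. In AT2-like cells the 2 libraries held 42 and 70 UMIs, or 7.04 and 6.89 CPM, a ratio of 0.979 (0.658–1.47). The log2 ratio in AT2-like cells was 0.60 with likely doublets kept and 0.66 at 5% mitochondrial UMIs. Each of the other 10 main classes had at most 3 Arg1 UMIs in either library.

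**Figure D3:**
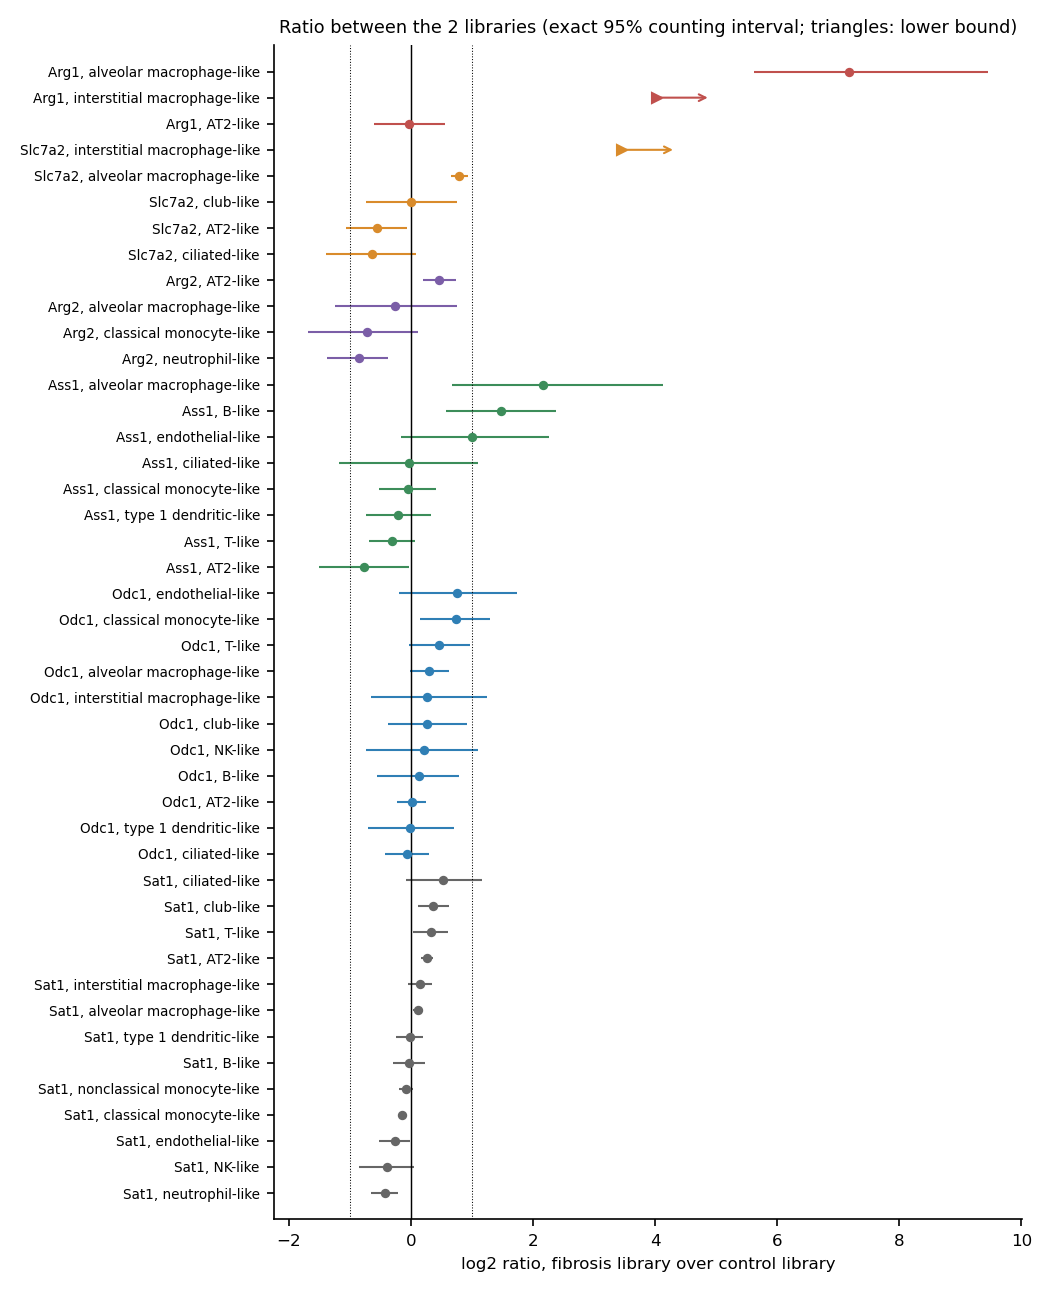
Log2 ratio of the fibrosis over the control library (x axis) for each gene and class with at least 20 UMIs (y axis), with exact 95% counting intervals, and triangles for the lower bounds of pairs with 0 control UMIs. Arg1 in alveolar macrophage-like cells (145-fold) lies farthest right, and most other pairs lie within 2-fold.

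In the fibrosis library, Arg1 was not spread evenly over the alveolar macrophage-like cells. It was higher in cells with more RNA of Mmp12, Spp1, Gpnmb, Trem2 and Mmp14, genes known from macrophages of fibrotic lung, combined in a score from 0 to 1. The 5 genes were taken from earlier results of these data, so the score is a description of these libraries. In 6 steps of the score, from 0–0.02 to 0.4–1, Arg1 was at 5.04, 10.1, 74.9, 260.1, 469 and 980.4 CPM in fibrosis, in 359, 235, 175, 109, 58 and 28 cells. Slc7a2 over the same steps was at 297, 333, 345, 364, 292 and 311 CPM, and so was about as high at the lowest step as at the highest. Odc1 went from 39.8 to 58.4 CPM between the lowest and the highest step and Sat1 from 657 to 856 CPM. In control, the 4 steps with at least 20 cells had Arg1 at 0, 0, 0 and 9.13 CPM.

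The alveolar macrophage markers Siglecf, a surface lectin, and Krt79, a keratin, were lower at higher steps in fibrosis, going from 124 to 23.3 CPM and from 427 to 19.5 CPM. C1qa, a complement gene used as an interstitial macrophage marker, went from 14.0 to 105 CPM. Another alveolar macrophage marker, Chil3, a chitinase-like protein, was compared by Arg1 UMI and not by score. It was 78170.2 CPM in the 119 fibrosis cells with an Arg1 UMI and 35599 CPM in the 845 without. Cells at higher steps thus had less Siglecf and Krt79, and cells with Arg1, a different grouping, had more Chil3. Over all cells of the class, the 10 alveolar macrophage markers summed to 21853 CPM in control and 48127 CPM in fibrosis, and the 8 interstitial macrophage markers to 48.1 and 144 CPM. Their part in the Arg1 difference was not tested.

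Cut at a score of 0.15, the high-scoring cells were 14 of 644 alveolar macrophage-like cells (2.17%) in control and 117 of 964 (12.1%) in fibrosis, with 41 and 109 cells between 0.1 and 0.2. In fibrosis, the high-scoring cells held 578 of the 750 Arg1 UMIs, at 645 CPM (594–700.2). The remaining fibrosis cells held 172 UMIs at 36.0 CPM, still above the 0.312 CPM (1 UMI) of the remaining control cells. An Arg1 UMI was found in 60.7% of the high-scoring cells (median 6522.0 UMIs) and in 5.67% of the others (median 5245.0). Thinned to 1000 UMIs, the shares were 35.9% and 2.13%. Slc7a2 differed little between these sets within fibrosis, at 335 and 321 CPM, and was at 188 CPM in the remaining control cells. Without the high-scoring cells its ratio between the libraries was 1.71 (1.56–1.88).

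**Figure D4:**
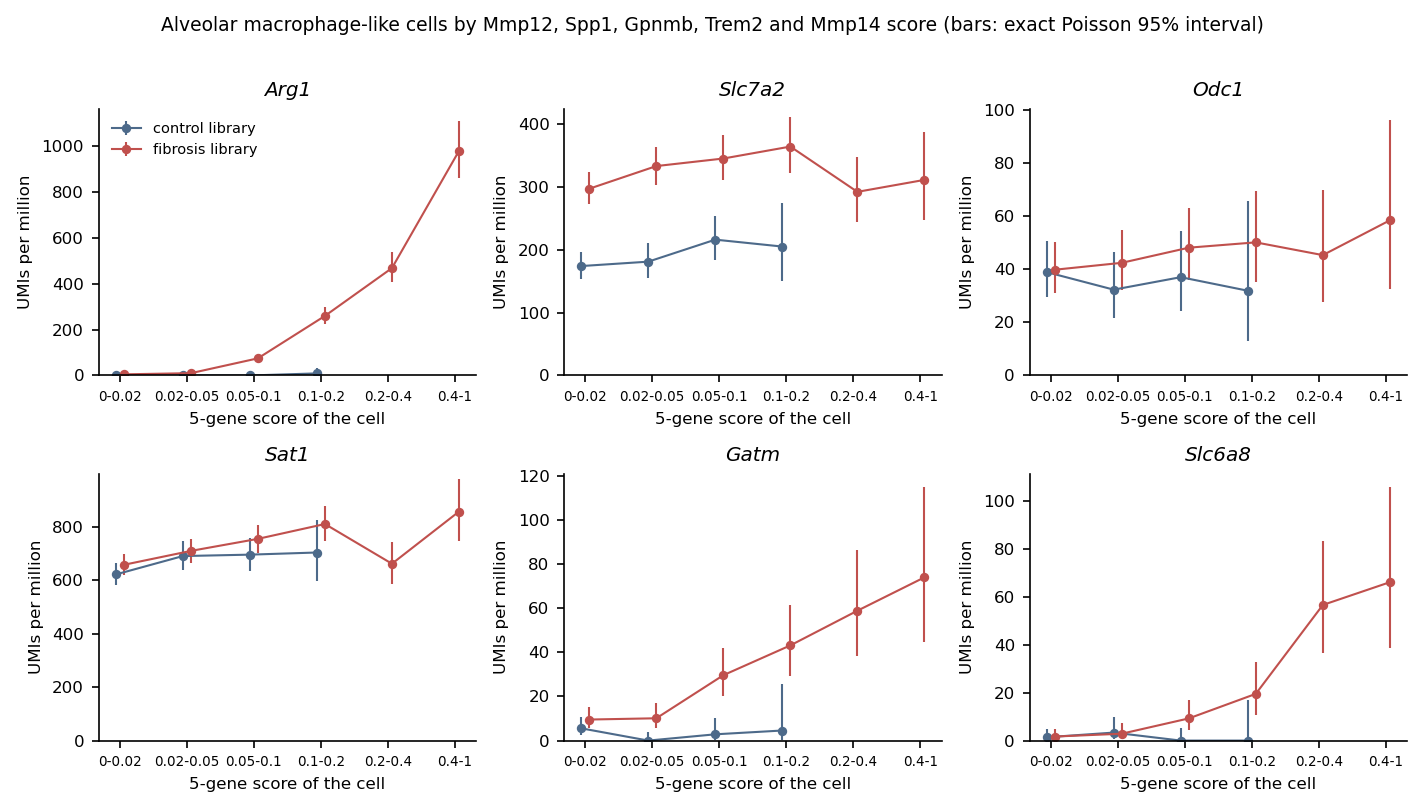
Level in CPM (y axis) of the genes in alveolar macrophage-like cells grouped by a 5-gene score of Mmp12, Spp1, Gpnmb, Trem2 and Mmp14 (x axis), by library, with exact Poisson 95% intervals; groups of fewer than 20 cells are not drawn. Arg1 goes from 5.04 to 980.4 in fibrosis, while Slc7a2 stays between 292 and 364.

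Interstitial macrophage-like cells showed a like split. Only 26 of 317 fibrosis cells (8.20%) had an Arg1 UMI, at a median depth of 5364.0 UMIs against 3213.0 in the others. These 26 cells had Slc7a2 at 293 CPM against 33.4 CPM in the other 291 cells. They also had Mmp12 at 1902 against 461 CPM and Chil3, an alveolar macrophage marker, at 3192 against 521 CPM. Krt79 and Fabp1 had 0 UMIs in them. Krt79 was only 19.5 CPM in fibrosis alveolar macrophage-like cells at the highest score step, so its 0 in 26 cells says little. Pf4, an interstitial macrophage marker, was lower in the 26 cells (625 against 1508 CPM), and C1qa was 4149.5 against 5335 CPM. The 10 alveolar macrophage markers summed to 896 CPM in control and 1841 CPM in fibrosis interstitial macrophage-like cells, and the 5 genes of the score to 421 and 1645 CPM. Whether these cells carry RNA of alveolar macrophages was not tested.

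AT2-like cells held Arg1 in both libraries at like levels, in 37 control and 54 fibrosis cells. The control AT2-like cells with Arg1 had 0 UMIs of Mmp12 and of Spp1. All 975 control AT2-like cells held only 3 and 10 UMIs of these genes, so 0 in 37 cells says little. In fibrosis, Mmp12 was 27.2 CPM in the AT2-like cells with Arg1 and 10.9 CPM in those without. There were 0.598 Arg1 UMIs per Mmp12 UMI in fibrosis AT2-like cells, against 0.0960 in alveolar macrophage-like and 0.152 in interstitial macrophage-like cells of the same library. The other classes lay between 0 (ciliated-like and endothelial-like cells) and 0.286 (NK-like cells), each on at most 3 Arg1 UMIs. The part of free RNA in these values was not tested. The AT2-like cells of the 2 libraries fell mainly in different clusters, 644 of 975 control cells in one led by Bex2 and Fam181a and 789 of 1670 fibrosis cells in one led by Sprr1a and Gc.

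Arg1 also appeared in cells outside the main classes. A small class with markers of group 2 innate lymphoid cells, which make the type 2 cytokines IL-5 and IL-13, had the highest Arg1 level of any class in each library, on few cells. It held under 10% of Arg1 UMIs and is named after its values were seen. It had 4 UMIs in 7 control cells (239 CPM, 65.2–613) and 33 UMIs in 51 fibrosis cells (214 CPM, 148–301). Arg1 was found in 18 of the 51 fibrosis cells (35.3% at a median of 2634.0 UMIs, or 19.6% when thinned to 1000). Cd3d, part of the T cell receptor complex, was 18.9 CPM in those 18 cells and 346 CPM in the other 33. Il1rl1, the receptor of IL-33, was 814 against 474 CPM and Gata3 644 against 633 CPM. In this mixed class, Arg1 thus sat in the cells with little T cell receptor RNA. These 18 cells had 0 UMIs of C1qa. In fibrosis alveolar macrophage-like cells C1qa was itself only 13.9 to 105 CPM over the score steps, so this 0 says little. Over the 51 cells, the 10 alveolar macrophage markers summed to 435 CPM and the 5 score genes to 45.5 CPM. In fibrosis neutrophil-like cells these sums were 398 and 75.0 CPM. The part of free RNA was not tested. Among fibrosis cells that passed no gate, which held 7.05% of Arg1 UMIs, the 40 with Arg1 had Mmp12 at 2991 CPM against 375 CPM in the other 578.

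Arg2, the mitochondrial arginase, was found mainly in neutrophil-like and AT2-like cells, and AT2-like cells held Arg1 too. Neutrophil-like cells, short-lived granulocytes, held 52.8% of its control UMIs. Their Arg2 level was 322 CPM in control (444 UMIs in 676 cells) and 178 CPM in fibrosis (38 UMIs in 82 cells), a ratio of 0.554 (0.387–0.772). This was lower past counting error but not at least 2-fold. AT2-like cells had 27.2 CPM in control (162 UMIs) and 37.3 CPM in fibrosis (379 UMIs), a ratio of 1.37 (1.14–1.66). Classical monocyte-like cells were at 12.5 and 7.56 CPM, a ratio of 0.607 (0.313–1.08). Alveolar macrophage-like cells had 4.87 CPM (16 UMIs) and 4.05 CPM (23 UMIs), a ratio of 0.832 (0.421–1.69), so Arg2 showed no difference there of the size seen in Arg1. With few neutrophil-like and more AT2-like cells in the fibrosis library, AT2-like cells held 72.1% of its Arg2 UMIs, against 19.3% in control.

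Nos2 was close to absent, with 14 UMIs in 13 control cells and 18 UMIs in 17 fibrosis cells. The cells between related classes held the most, 5 UMIs in control and 6 in fibrosis. Endothelial-like cells, which line vessels, had 4 UMIs in control and 3 in fibrosis. Ciliated-like cells had 3 UMIs in control and neutrophil-like cells 2 in each library. No Nos2 UMI was found in alveolar macrophage-like cells, which allows up to 0.913 CPM in control and 0.529 CPM in fibrosis by a floor of 3 UMIs. Interstitial macrophage-like, classical monocyte-like and nonclassical monocyte-like cells also had 0 UMIs in both libraries. No change in Nos2 was detectable at this depth.

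Ass1, which feeds citrulline back to arginine, was highest in T-like and type 1 dendritic-like cells among the 13 classes. T-like cells had 86.9 CPM in control (144 UMIs) and 70.2 CPM in fibrosis (100 UMIs), a ratio of 0.808 (0.620–1.05). Type 1 dendritic-like cells, which present antigen to CD8 T cells, had 69.8 CPM (50.9–93.4) and 60.2 CPM (48.7–73.5). Ciliated-like cells followed at 39.2 and 38.1 CPM. Classical monocyte-like cells were next in control at 28.3 CPM, while in fibrosis endothelial-like (32.5 CPM) and B-like cells (29.9 CPM) stood above their 27.3 CPM. In these orders neighbouring classes did not differ beyond counting error. The 1598 classical monocyte-like cells held 35.6% of control Ass1 UMIs.

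Within T-like cells, Ass1 was higher in those with a Cd4 UMI than in those with a Cd8a UMI. It was 192 CPM (141–257) in control and 177 CPM (127–240.0) in fibrosis in Cd4 cells, from 71 and 74 cells. Cells with Cd8a had 35.3 CPM (22.1–53.5) and 35.0 CPM (20–56.9), from 182 and 138 cells. The intervals of the Cd4 and Cd8a cells were apart in each library. T-like cells with at least 3 of 5 cell cycle genes also had more Ass1, at 249.7 CPM against 73.7 CPM in control and 189 against 61.2 CPM in fibrosis, though from only 14 and 12 cycling cells. These 2 splits were made after the T-like level was seen.

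Ass1 was called higher in fibrosis in B-like cells, at 10.8 CPM (20 UMIs) and 29.9 CPM (27 UMIs), a ratio of 2.77 (1.5–5.21). It was also called in alveolar macrophage-like cells, at 1.22 CPM (4 UMIs) and 5.46 CPM (31 UMIs), a ratio of 4.49 (1.59–17.5). Only 2 control cells held those 4 UMIs: the log2 ratio was 4.02 without the highest cell of each library and 1.44 with likely doublets kept. Within fibrosis, the high-scoring alveolar macrophage-like cells held 15 of the UMIs at 16.7 CPM and the others 16 UMIs at 3.35 CPM. In endothelial-like cells it was 16.3 and 32.5 CPM, just under 2-fold, with an interval of 0.892–4.77. AT2-like cells had 5.70 and 3.35 CPM, a ratio of 0.587 (0.354–0.974).

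Odc1, the first enzyme of polyamine synthesis, was highest in ciliated-like cells among the main classes. Its level there was 345 CPM in control (132 UMIs) and 331 CPM in fibrosis (130 UMIs). The ratio there was 0.957 (0.745–1.23). Every other main class was far lower. AT2-like cells were at 38.6 and 38.9 CPM, NK-like cells at 44.8 and 51.7 CPM, T-like cells at 39.2 and 54.0 CPM and endothelial-like cells at 26.1 and 43.9 CPM. These classes did not differ from their neighbours in the order of levels beyond counting error, except endothelial-like above classical monocyte-like cells in control. Alveolar macrophage-like cells, where Arg1 differed most, had Odc1 at 36.2 and 44.6 CPM, a ratio of 1.23 (0.986–1.54). Classical monocyte-like cells had 12.2 and 20.4 CPM, a ratio of 1.67 (1.10–2.47). Odc1 was not past 2-fold in any of the 11 marker classes with at least 20 of its UMIs. With Leiden clusters, though, its log2 ratio in club-like cells was 2.34 (7 and 77 UMIs) against 0.26 by markers. Of all genes in club-like cells, 21.2% were called higher with clusters, against 6.40% by markers. Neutrophil-like cells, with fewer than 20 Odc1 UMIs, had 8.69 CPM (12 UMIs) in control and 23.4 CPM (5 UMIs) in fibrosis, a ratio of 2.70 (0.744–8.22). Over all cells, Odc1 was 50.5 CPM (35.4–69.9) in control cells with cell cycle genes and 36.0 CPM in the rest, and 91.4 CPM (76.6–108) and 50.5 CPM in fibrosis. These pool classes of unlike level, and not every class had this direction: control alveolar macrophage-like cells were at 24.0 CPM with cell cycle genes (6 UMIs) and 37.2 CPM without.

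Sat1, the acetylase that marks polyamines for export, was found in all 13 classes and was highest in myeloid cells. Nonclassical monocyte-like cells, which patrol vessels, had 1972 CPM (1875–2072) in control and 1869.8 CPM (1753–1992) in fibrosis. Neutrophil-like cells were at 1235 and 919 CPM, a ratio of 0.744 (0.638–0.863), and classical monocyte-like cells at 1040.4 and 945 CPM, a ratio of 0.909 (0.861–0.958). With Leiden clusters the log2 ratio of classical monocyte-like cells was 0.06, so its direction turned. In control each of these 3 classes, in this order, was above the next beyond counting error. In fibrosis classical monocyte-like cells were above neutrophil-like cells, but not beyond counting error. Alveolar macrophage-like cells had 664 and 717 CPM, a ratio of 1.08 (1.02–1.14). T-like cells (118 and 148 CPM) and ciliated-like cells (102 and 147 CPM) were lowest. Sat1 was counted deeply enough that ratios near 1 were past counting error, yet none in the 13 classes was past 1.5-fold. In the smaller AT1-like class, named after its values were seen, Sat1 had 19 UMIs in 28 control cells and 49 in 34 fibrosis cells. The ratio was 2.03 (1.18–3.66), and 1 fibrosis cell held 14 of the UMIs. Of the 13 classes, ciliated-like cells were therefore the highest in Odc1 and among the lowest in Sat1, in both libraries.

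Among 42 other genes of arginine, polyamine, proline and creatine metabolism, few were called. In alveolar macrophage-like cells 2 of 28 genes with enough UMIs were higher and 0 lower, with a median log2 ratio of −0.01. Against 4.34% of all genes higher and 1.98% lower in this class, the count is near the background. The 2 genes act in creatine synthesis and uptake. Gatm, which moves the amidino group of arginine to glycine in creatine synthesis, was 3.65 CPM in control (12 UMIs) and 24.5 CPM in fibrosis (139 UMIs), a ratio of 6.71 (3.72–13.3). Slc6a8, the creatine transporter, was 1.52 CPM (5 UMIs) and 12.9 CPM (73 UMIs), a ratio of 8.45 (3.46–26.8). Over the steps of the score in fibrosis, Gatm went from 9.53 to 73.9 CPM and Slc6a8 from 1.68 to 66.1 CPM, as Arg1 did. The genes that take ornithine to proline or polyamines were not called in these cells. Srm, spermidine synthase, was 36.8 and 36.1 CPM.

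Elsewhere few of these genes were called. None of 31 genes was called in AT2-like cells, none of 24 in interstitial macrophage-like cells and none of 30 in classical monocyte-like cells. Oat, which turns ornithine toward proline, was highest in AT2-like cells, at 381 and 390.0 CPM. It was called higher in endothelial-like cells, at 29.3 and 81.3 CPM, a ratio of 2.77 (1.59–5.05), where 4.08% of genes were higher. Endothelial-like cells of the 2 libraries also fell mainly in different clusters, 148 of 237 control cells in one led by Rprml and Apln and 72 of 160 fibrosis cells in one led by Rbp7 and Gja5. Nos3, the endothelial nitric oxide synthase, was 34.2 and 61.8 CPM in endothelial-like cells, a ratio of 1.81. Sms, spermine synthase, and Azin1, which protects Odc1 from breakdown, were highest in ciliated-like cells, Sms at 332 and 325 CPM and Azin1 at 175 and 193 CPM. Odc1, Sms and Azin1 thus had the same highest class among the 13. In neutrophil-like cells 0 of 11 genes were higher and 2 lower, where 7.34% of all genes were lower: Smox, spermine oxidase, at 105 and 46.9 CPM, and Oaz2, an antizyme that marks Odc1 for breakdown, at 229 and 79.7 CPM. For Asl, the enzyme after Ass1, interstitial macrophage-like cells were the highest class, at 45.9 and 28.3 CPM, and for Padi4, which turns peptidyl arginine into citrulline, neutrophil-like cells were, at 109 and 60.9 CPM. In nonclassical monocyte-like cells 3 of 20 genes were lower, against 4.01% of all genes: Asl at 25.2 CPM (20 UMIs) and 5.85 CPM (3 UMIs), a ratio of 0.232 (0.0441–0.781), Spr at 48.0 and 23.4 CPM and Slc7a7 at 21.5 and 9.75 CPM. Among the remaining calls, Smox was higher in ciliated-like (41.9 and 83.9 CPM) and T-like cells (4.83 and 11.2 CPM), and Slc7a7, beside Oat, in endothelial-like cells (9.77 and 24.4 CPM). Slc7a6 was lower in ciliated-like (44.5 and 20.3 CPM), Ddah2 in club-like (28.0 and 12.8 CPM) and Srm in type 1 dendritic-like cells (31.0 and 14.6 CPM). Some of these calls rested on few UMIs. Smox in T-like, Slc7a6 in ciliated-like and Slc7a7 in endothelial-like and nonclassical monocyte-like cells were not past counting error.

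The genes most like each member were found by Pearson correlation of log2(CPM + 1) over 26 points (13 classes in 2 libraries), among 11450 genes with at least 200 UMIs. Classes of 1 library share its depth and free RNA, so the values are descriptions. For Arg1 they were Rnase2a (0.82), Npy (0.80) and Mmp12 (0.76), and for Slc7a2 Vdr (0.91), Kcnip4 (0.88) and Galnt3 (0.86). Arg2 was most like Lcn2 (0.86), the neutrophil gene Ly6g (0.82) and BC100530 (0.82). For Odc1 they were Pla2g16, Suclg2 and 1110004E09Rik (each 0.90), and for Sat1 Nadk (0.94), I830077J02Rik (0.94) and Ifi204 (0.92). Ass1 had weaker likeness, with Rhebl1 (0.67), Rhobtb2 (0.65) and Churc1 (0.65), and Nos2, on 32 UMIs in all, was nearest to Bace2 (0.77), Ankrd33b (0.76) and Midn (0.74).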

How the data were processed

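Raw UMI counts per gene and cell were used as the authors deposited them, in 2 matrices of called cells. Cell Ranger 1.3, bcl2fastq and mm10 are named per the submitters' processing notes, and the strand setting is not given in the sources used here. Of the 27998 gene IDs, 98.7% were in GENCODE M21. Cells with at least 200 genes and at most 10% mitochondrial UMIs were kept, and the cells with the highest doublet scores were removed at 0.8% per 1000 cells (515 in control, 386 in fibrosis). The lowest cell had 1460 UMIs in control and 1915 in fibrosis.

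A cell was put in a class when at least 3 of its markers had a UMI, its scaled marker score was at least 0.05, and scores of other lineages were at most 60% of it, of other classes of its lineage 80% and of other epithelial classes 25%. The last limit was set after marker values were seen. As an alternative, 36 Leiden clusters were made from 2000 variable genes and 30 components, with the 7 genes left out. Counts were summed by class and library. Levels have exact Poisson intervals, ratios exact conditional intervals and shares of cells Clopper-Pearson intervals, all at 95%, and a class with 0 UMIs was set to a floor of 3 for a lower bound. A ratio of at least 2 or at most 0.5 on at least 20 UMIs was called. With 1 library per group no p-value was computed. Named were the 7 genes in every class of at least 50 cells, pathway genes where they were called (1 call is not reported here) and some in their highest class, and the 3 genes most like each member. The members, marker lists and pathway lists were chosen with earlier results of these data known. Scripts were tested on simulated data and used python 3.11.15, scanpy 1.11.5, scipy 1.17.1, python-igraph 0.11.9, scikit-learn 1.9.0 and biopython 1.88. Alternatives varied the class calls, gate, doublets, mitochondrial limit, UMI floor, scaling, free RNA, shared barcodes and single cells.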

Additional observations from a re-analysis of the deposited data

How the results depend on the processing

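No paired analysis was possible because the groups share only replicate number 1, with 1 library each. Over 10 alternatives, 437 ratios of a member in a class were computed again: 420 stayed within the counting interval of the reported ratio and 17 moved out of it. None of the called ratios changed sign, whereas some below 2-fold did, and of those that moved these were Sat1 in classical monocyte-like, endothelial-like and interstitial macrophage-like cells, Odc1 in club-like and Arg1 in AT2-like cells, with the values below. The log2 ratio of Arg1 in alveolar macrophage-like cells ran from 6.95 (mean over cells) to 8.45 (stricter gate, on 1 control UMI), of Slc7a2 there from 0.72 to 0.87, of Arg2 in neutrophil-like cells from −0.95 to −0.66 and of Ass1 in B-like cells from 1.23 to 1.69. Ass1 in alveolar macrophage-like cells ran from 1.44 with doublets kept to 4.02 without the highest cell of each library. Lower bounds in interstitial macrophage-like cells fell with the UMIs left. For Arg1 they were 2.94 with Leiden clusters, 3.58 with the stricter gate, 3.29 at 5% mitochondrial UMIs and 3.65 without the highest cell, and for Slc7a2 2.50 (there a ratio, on 2 control UMIs), 2.83, 2.07 and 3.11. In AT2-like cells Arg1 was 0.60 with doublets kept and 0.66 at 5% mitochondrial UMIs, where the control library kept 12 UMIs. Odc1 in club-like cells was 2.34 with clusters and −0.44 at 5%. Sat1 was 0.06 in classical monocyte-like cells with clusters, 0.06 in endothelial-like and −0.90 in NK-like cells with the stricter gate, −0.07 in interstitial macrophage-like cells with doublets kept and −3.32 in NK-like cells with the lowest class subtracted. The cause of these shifts was not tested. In alveolar macrophage-like cells, genes at least 2-fold higher numbered 684 with at least 10 UMIs and 226 with at least 50, against 448, and genes lower 350 and 84, against 204. The share of these cells with a UMI moved with depth: for Arg1 in fibrosis it was 12.3% without thinning, and for Slc7a2 56.5% in control and 72.5% in fibrosis without thinning and 30.2% and 44.0% at 2000 UMIs. Depth limits Nos2, with 14 and 18 UMIs in all, and Arg1 in classes with at most 3 UMIs.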

Other observations

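Among smaller classes, migratory dendritic-like cells, which carry antigen to lymph nodes, had Ass1 at 94.2 CPM (41 UMIs in 80 cells) in the fibrosis library. Type 2 dendritic-like cells had Ass1 at 51.5 CPM in control and 46.4 CPM in fibrosis. Group 2 innate lymphoid-like cells of the fibrosis library had Ass1 at 156 CPM (24 UMIs) and Odc1 at 188 CPM (29 UMIs), with 0 UMIs of Slc7a2. These classes were named after their values were seen. In lymphatic endothelial-like cells of the fibrosis library, 15 cells held 3 Nos2 UMIs. A cluster of lymphoid cells led by Il13, Rln3, Foxp3 and Pdcd1 held 11 Arg1 UMIs in 79 control cells (52.9 CPM) and 55 in 221 fibrosis cells (86.1 CPM). In T-like cells with a Cd4 UMI, Odc1 was 37.6 CPM (17.2–71.4, 9 UMIs) in control and 116 CPM (76.8–169, 27 UMIs) in fibrosis. In those with a Cd8a UMI it was 49.8 CPM (33.8–70.7, 31 UMIs) and 24.1 CPM (12.0–43.1, 11 UMIs). This split was made after values of these cells were seen. In fibrosis, Arg1 was 39.4 CPM in alveolar macrophage-like cells with cell cycle genes and 141 CPM in the rest.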
